A study of Mus musculus with 6 samples.

Results

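The aryl hydrocarbon receptor pathway was followed in mouse liver through 8 genes. They were the receptor Ahr, its partner Arnt, its repressor Ahrr, the cytochrome P450 genes Cyp1a1, Cyp1a2 and Cyp1b1, and the further target genes Tiparp and Xdh. All non-control probes that the array files name for these genes were taken, which gave 14 probes of 8 genes, out of 55681 probes of 34781 names in all. Whole liver was taken from 6 mice of the inbred strain C57BL6/J, killed 2 h after oral dosing. The treated group was 3 mice given 250 mg/kg of CBZ, which the labels do not spell out, and the control group was 3 mice given DMSO, the solvent dimethyl sulfoxide. RNA of each liver was hybridised to its own 1-colour array. The labels used here name no genetic change, and no second dose or time was analysed here, so each value is 1 early time point of 1 dose.

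The aryl hydrocarbon receptor is a transcription factor of the bHLH-PAS family that waits in the cytoplasm with the chaperone HSP90 and its helpers. When a planar aromatic ligand binds, it moves to the nucleus, pairs with ARNT and binds DNA at a short core motif, GCGTG. In liver the pathway is known for the induction of Cyp1a1, which is nearly silent in untreated hepatocytes, and of Cyp1a2, which pericentral hepatocytes express at all times. Ahrr and Tiparp are targets that damp the receptor in turn.

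Promoter sequences just before the transcription start were searched for the letters of the core motif. The RefSeq table (GRCm38.p6) held an entry for 6 of the 8 genes, none for Ahr or Xdh, and the 250 bases before the transcription start were searched on both strands for GCGTG. The windows are printed in the direction of each gene, and capitals mark the core motif, which reads CACGC where it lies on the opposite strand. The head-to-head pair Cyp1a1 (chr9:57697363-57697612, plus strand) and Cyp1a2 (chr9:57683656-57683905, minus strand) is shown because one probe was bright in every liver and the other never well above background. Ahrr (chr13:74292332-74292581, minus strand) is shown for its number of motifs, and Cyp1b1 (chr17:79715062-79715311, minus strand) and Tiparp (chr3:65528197-65528446, plus strand) for motifs on the opposite strand.
Cyp1a1 promoter: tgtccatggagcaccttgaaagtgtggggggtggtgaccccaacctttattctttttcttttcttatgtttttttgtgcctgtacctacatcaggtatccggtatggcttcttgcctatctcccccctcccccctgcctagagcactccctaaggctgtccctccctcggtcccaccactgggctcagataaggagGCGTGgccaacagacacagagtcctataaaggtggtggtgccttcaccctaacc
Cyp1a2 promoter: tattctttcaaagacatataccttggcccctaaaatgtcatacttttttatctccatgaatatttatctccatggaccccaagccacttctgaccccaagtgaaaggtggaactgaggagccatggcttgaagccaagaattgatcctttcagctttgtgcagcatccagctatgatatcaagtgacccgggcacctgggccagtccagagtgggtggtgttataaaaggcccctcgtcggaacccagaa
Ahrr promoter: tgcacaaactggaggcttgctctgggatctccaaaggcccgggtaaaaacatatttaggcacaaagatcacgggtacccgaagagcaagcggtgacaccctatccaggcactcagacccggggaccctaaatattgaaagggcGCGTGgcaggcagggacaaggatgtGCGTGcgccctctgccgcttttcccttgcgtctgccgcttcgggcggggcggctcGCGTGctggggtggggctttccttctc
Cyp1b1 promoter: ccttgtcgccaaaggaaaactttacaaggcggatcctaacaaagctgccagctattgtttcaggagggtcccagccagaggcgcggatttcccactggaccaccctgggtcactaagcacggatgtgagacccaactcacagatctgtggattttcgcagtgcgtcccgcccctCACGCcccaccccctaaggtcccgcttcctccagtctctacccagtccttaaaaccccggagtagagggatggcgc
Tiparp promoter: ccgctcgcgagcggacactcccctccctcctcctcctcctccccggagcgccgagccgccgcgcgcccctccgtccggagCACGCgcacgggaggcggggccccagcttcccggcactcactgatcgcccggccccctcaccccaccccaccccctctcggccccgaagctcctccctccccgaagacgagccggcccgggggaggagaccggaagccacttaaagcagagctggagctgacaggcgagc

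The core motif stood in 5 of the 6 windows. Ahrr held 3 copies on the strand of the gene, at bases 82 to 78 and 27 to 23 before the start and once further upstream, and 1 of them was the longer form TNGCGTG. Cyp1a1 held 1 copy at bases 54 to 50, Arnt (chr3:95434140-95434389, plus strand) 1 at bases 29 to 25, Cyp1b1 1 at bases 76 to 72 and Tiparp 1 at bases 170 to 166. Cyp1a2 held none in this window. Among all 32851 promoter windows of that length in the table, 28.2% held GCGTG, 2.77% held at least 3 copies, and 4.1% held TNGCGTG, within which the core is counted too. A match of letters is a description of the window, and its absence says only that these letters are not there. Sequence further upstream was not searched, and binding of the receptor at any of these matches was not tested. The starts of Cyp1a1 and Cyp1a2 lay 13958 bases apart.

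**Figure D1:**
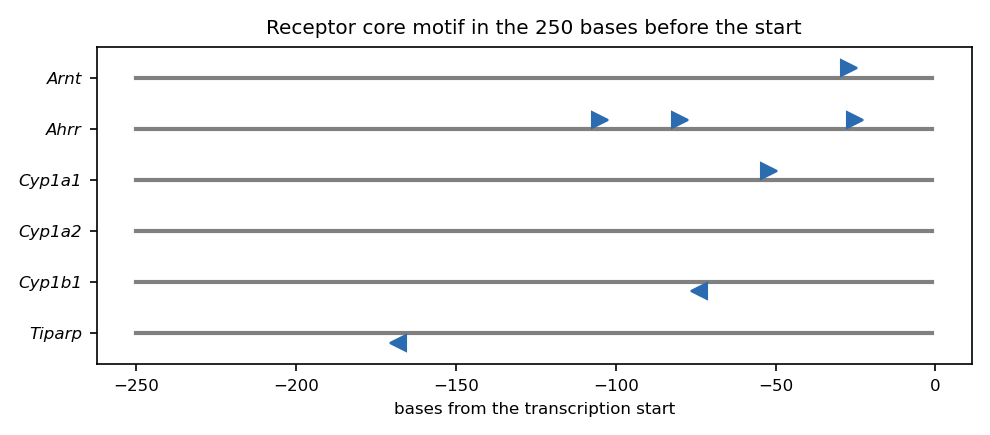
Positions of the receptor core motif GCGTG in the 250 bases before the start of 6 genes; the x axis is bases from the transcription start, right-pointing marks above a line are motifs on the strand of the gene and left-pointing marks below it are motifs on the opposite strand. Ahrr carries 3 marks, Cyp1a2 carries none, and the other 4 genes carry 1 each.

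The scanner software called 42.6% to 45.8% of an array's spots well above background and none saturated. The 75th percentile of an array's processed intensity lay between 158 and 191 units, 9.89 to 12.3 times its median local background. Signals below are processed intensities divided by that 75th percentile, so that 1 marks a probe at the 75th percentile of its array. They are given for DMSO replicates 1 to 3 and then CBZ replicates 1 to 3, and they are not compared between probes, whose brightness also depends on the probe. Log2 fold changes are CBZ minus DMSO with the moderated standard error of limma, and adjusted p-values are Benjamini-Hochberg values over all 22352 probes kept. All 6 arrays lay on 1 slide, with the 3 DMSO arrays and CBZ replicate 1 in row 1 and CBZ replicates 2 and 3 in row 2. Precision is limited by there being 3 arrays a group. The labels number the mice within a group but say nothing of litters or cages.

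Among the genes that could be tested, the largest difference was in the receptor itself, whose signal was 1.65-fold higher and higher in each CBZ mouse than in any DMSO mouse, without passing the threshold over all probes. The groups overlapped for the targets Cyp1a2, Tiparp and Xdh, and Cyp1a1 and Cyp1b1 were not well above background in any mouse. Of the 14 probes, 7 were well above background on all 6 arrays and were tested, and the other 7 were well above background on none. The tested probes covered Ahr, Arnt, Cyp1a2, Tiparp and Xdh, and Ahrr, Cyp1a1 and Cyp1b1 had none. With limma, 0 of these 5 genes passed an adjusted p of 0.05, where 0.0528% of the 17047 genes tested passed it in either direction. In CBZ, 8 genes (0.0469%) were higher and 1 (0.00587%) lower. That split moved to 59 higher and 44 lower with normexp background correction, and to 44 higher and 45 lower when arrays were scaled on their median. At an unadjusted p under 0.05, 2 of the 5 genes differed, Ahr and Arnt, both higher in CBZ, where 8.96% of genes differed by that rule, 5% higher and 3.97% lower. The same 2 genes had CBZ values wholly above DMSO values, as did 6.26% of genes, and none had CBZ values wholly below, as did 6.65%.

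**Figure D2:**
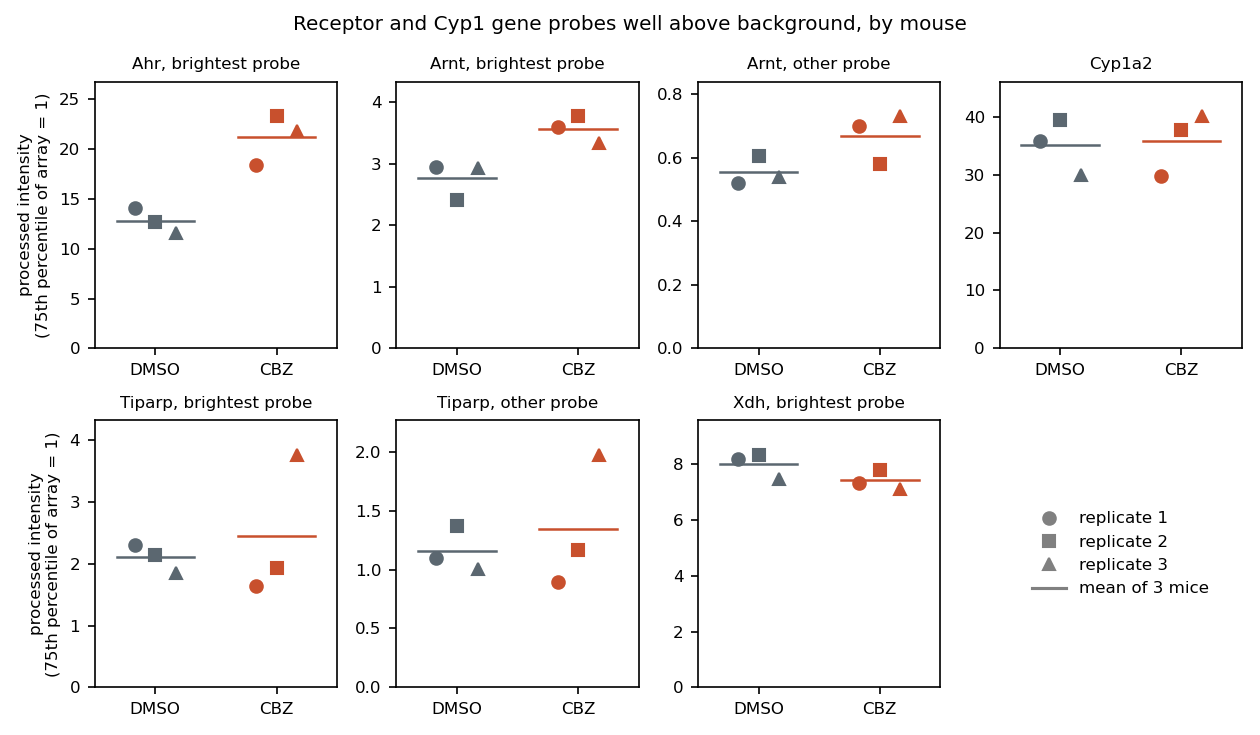
Scaled processed intensity (y axis, 75th percentile of each array = 1, from 0) of the 7 probes well above background, with 1 point per mouse, the marker giving the replicate number and the line the mean of 3 mice. The CBZ points of Ahr and of the brightest Arnt probe lie above all DMSO points, and CBZ replicate 3 stands above the other mice for both Tiparp probes.

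Ahr encodes the ligand-binding receptor. Its brightest probe (A_55_P2109613, mm9 chr12:36182724-36182783, minus strand) read 14.1, 12.7 and 11.6 in DMSO and 18.4, 23.3 and 21.8 in CBZ. All 3 CBZ mice were above all 3 DMSO mice, and the lowest CBZ value was CBZ replicate 1. The means were 12.8 ± 1.25 and 21.2 ± 2.48 (SD, n = 3 each), a log2 fold change of 0.73 ± 0.15, or 1.65-fold (95% interval of limma 1.32 to 2.08, for this gene alone). Its unadjusted limma p was 0.00084, which placed it 88th of 17047 genes, and 1.01% of genes had a log2 fold change at least as high. The adjusted p of limma was 0.158, so the difference did not pass the threshold over all probes.

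The Ahr call depended on how the intensities were treated. With normexp background correction the log2 fold change was 0.72 and the adjusted p of limma 0.018, where 0.346% of genes passed in the higher direction. With an intensity trend and robust variance estimation in limma the adjusted p was 0.0065, where 0.37% of genes passed in that direction. Under the other 15 alternatives it missed the threshold, and the log2 fold change was 0.53 to 0.82 over all 17. The lowest of these came from the fit with slide row as a term, where only CBZ replicate 1 is set against the 3 DMSO mice beside it. Leaving out 1 mouse at a time gave 0.65 to 0.82, with adjusted p-values of limma of 0.147 to 0.53.

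A second Ahr probe (A_65_P06603, chr12:36188523-36188582) lies nearer the start of the transcript, at base 2574 against base 5361, and was not well above background on any array. It read 0.0431, 0.0501 and 0.0574 in DMSO and 0.0833, 0.118 and 0.0982 in CBZ. Its groups did not overlap either, and its log2 signal followed that of the brightest probe over the 6 arrays with r = 0.90, as a description over arrays that share the treatment groups. No fold is given for it, since neither group had it well above background, although it was significantly over background on 5 of the 6 arrays. On DMSO replicate 1 its value was a substitute set by the software.

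Arnt encodes the partner that the receptor needs to bind DNA, and which the hypoxia factors share. Its brightest probe (A_55_P2100895, mm9 chr3:95301081-95301140, plus strand) read 2.96, 2.42 and 2.93 in DMSO and 3.59, 3.77 and 3.34 in CBZ. The lowest CBZ mouse stood above the highest DMSO mouse. The difference was 0.37 ± 0.14 on the log2 scale, or 1.29-fold (95% interval 1.04 to 1.61), with an unadjusted limma p of 0.025 and an adjusted p of 0.43, at rank 925 of the genes. It was 0.27 to 0.42 over all alternatives and passed the threshold in none of them.

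The other Arnt probes did not separate the groups. The second (A_55_P2100899, chr3:95299434-95299493) read 0.522, 0.605 and 0.541 in DMSO and 0.699, 0.58 and 0.731 in CBZ. Its CBZ replicate 2 fell within the DMSO range, and its log2 fold change was 0.26 ± 0.14 (adjusted p of limma 0.66). Over the 6 arrays it followed the brightest probe with r = 0.36 only. The third (A_55_P2120812, chr3:95264558-95264617) was dim throughout, between 0.0548 and 0.202, with overlapping groups, and its values on DMSO replicate 1 and CBZ replicate 3 were substitutes. Arnt and Ahr, each by its brightest probe, correlated with r = 0.83 over the 6 arrays, whose 2 groups both genes separate.

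Ahrr encodes the repressor, which resembles the receptor, takes up ARNT and is itself a target gene. Neither of its probes was well above background on any array. The one at base 2553 of the transcript (A_55_P2128388, mm9 chr13:74350685-74350744, minus strand) lay between 0.0435 and 0.0601, and on all 6 arrays this was a substitute value set by the software for a signal it could not tell from background. The one at base 4532 (A_51_P254425, chr13:74348566-74348612) read 0.0719, 0.127 and 0.0986 in DMSO and 0.204, 0.0455 and 0.086 in CBZ. CBZ replicate 1 was its highest mouse and CBZ replicate 2 its lowest, so the CBZ range enclosed the DMSO range. The CBZ replicate 2 value was again a substitute, so its place at the bottom is not a reading. No fold is given for Ahrr, since neither group was well above background.

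Cyp1a1, the enzyme most often read as a sign of receptor activity, was not well above background in any mouse. Its probe (A_51_P279693, mm9 chr9:57551535-57551594, plus strand) read 0.0449, 0.0459 and 0.0557 in DMSO and 0.0601, 0.0438 and 0.0503 in CBZ. All 6 were substitute values, and the probe was significantly over background on 0 arrays. The lowest signal that the software called well above background on each array was 0.207 to 0.289, which was 4.6 to 4.86 times the value of this probe there. Because these values were set by the software, they give no order of the mice and no fold between the groups.

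Cyp1a2, the liver's constitutive CYP1 enzyme, was bright in both groups and did not differ beyond the spread between mice. Its single probe read 35.8, 39.3 and 30.0 in DMSO and 29.8, 37.7 and 40.1 in CBZ. The groups overlapped almost entirely, and the lowest mouse of each group lay at nearly the same height. The means were 35.0 ± 4.73 and 35.9 ± 5.37 (SD, n = 3 each), a log2 fold change of 0.03 ± 0.17 or 1.02-fold (adjusted p of limma 0.99). The 95% interval of 0.787-fold to 1.33-fold does not reach a 2-fold difference in either direction. The sign itself was not settled, since the value was -0.069 on median scaling, -0.22 with slide row as a term, and -0.077, -0.011 and -0.055 without DMSO replicate 3, CBZ replicate 2 and CBZ replicate 3.

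Cyp1a2 belongs to the pericentral zone, whose markers were read beside it. Of 8 pericentral markers, 6 were tested and all 6 had a log2 fold change below 0, where 49.1% of all genes were above 0. None of the 6 passed the threshold in limma, nor an unadjusted p under 0.05. Their median was -0.13, where the median over all genes was -0.0043, and their summed scaled signal was 1247 to 1352 in DMSO and 1194 to 1414 in CBZ. The other 2, Axin2 and Lgr5, were dim. Of 7 periportal markers, all tested, 3 were above 0 and 4 below, with a median of -0.06. None of the 7 passed the threshold in limma, nor an unadjusted p under 0.05. Their summed scaled signal was 2715.5 to 2888 in DMSO and 2517.5 to 2990.8 in CBZ. The part of zonation in the Cyp1a2 value was not tested.

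Cyp1b1, a CYP1 enzyme found mostly outside the hepatocyte, for example in stellate cells, was not well above background in any mouse either. Its probe (A_51_P255456, mm9 chr17:80106547-80106606, minus strand) read 0.141, 0.123 and 0.164 in DMSO and 0.214, 0.134 and 0.129 in CBZ. These were true readings rather than substitute values, significantly over background on all 6 arrays but not well above it. The lowest signal called well above background on each array was 1.35 to 1.84 times the probe's value. CBZ replicate 1 was the highest mouse, and the other 2 CBZ mice lay within the DMSO range. Stellate cell and fibroblast markers (6 of 7 tested, Des dim) summed to 120.5 to 131 in DMSO and 104 to 176.5 in CBZ, with 5 of the 6 above 0 and none past the threshold in limma nor at an unadjusted p under 0.05. Their part in the Cyp1b1 readings was not tested.

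**Figure D3:**
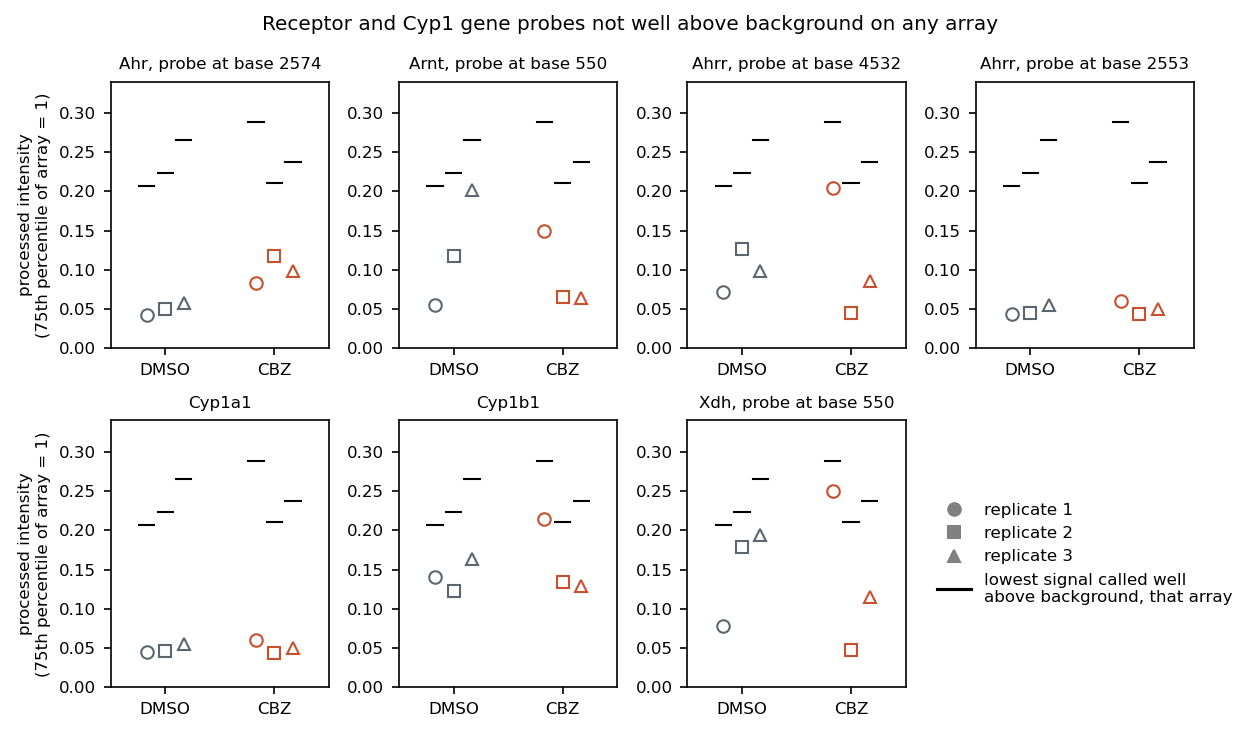
Scaled processed intensity (y axis, 75th percentile of each array = 1, from 0) of the 7 probes not well above background on any array, with 1 open point per mouse; the short black lines give the lowest signal called well above background on that mouse's array. Every point lies below its line, and the Cyp1a1 points and those of the Ahrr probe at base 2553 lie at about 0.05 in both groups.

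Tiparp encodes a mono-ADP-ribosyltransferase that modifies the receptor and limits its activity, and it responds early to receptor ligands. Its brightest probe (A_51_P514961, mm9 chr3:65358749-65358808, plus strand) read 2.31, 2.15 and 1.85 in DMSO and 1.65, 1.94 and 3.76 in CBZ. CBZ replicate 3 was the highest of all mice, and CBZ replicate 1 the lowest. The log2 fold change was 0.13 ± 0.28, or 1.09-fold (95% interval 0.701 to 1.70, adjusted p of limma 0.97), and without CBZ replicate 3 it was -0.23.

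The second Tiparp probe (A_55_P1985890, chr3:65357710-65357769) gave the same picture. It read 1.10, 1.37 and 1.01 in DMSO and 0.891, 1.17 and 1.97 in CBZ, so the same mice stood at the top and the bottom. Its log2 fold change was 0.14 ± 0.27 (adjusted p of limma 0.96), and -0.17 without CBZ replicate 3. Both probes followed each other over the 6 arrays with r = 0.94, so the high value of that mouse was read at 2 places of the transcript. The residual SD of Tiparp, 0.46 on the log2 scale, was larger than that of 95.5% of genes, whose median was 0.18.

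Xdh encodes xanthine dehydrogenase, which makes uric acid in purine breakdown and is also listed among receptor targets. Its brightest probe (A_51_P312121, mm9 chr17:74233511-74233570, minus strand) read 8.20, 8.33 and 7.49 in DMSO and 7.34, 7.81 and 7.14 in CBZ. The groups overlapped, with 2 DMSO mice above all CBZ mice. The means were 8.01 ± 0.45 and 7.43 ± 0.34 (SD, n = 3 each), and the log2 fold change was -0.11 ± 0.12, a 0.928-fold level (95% interval 0.765 to 1.13, adjusted p of limma 0.92). Xdh was the steadiest of the 5 genes within groups, with a residual SD of 0.075, below which only 3.95% of genes lay. Its second probe (A_55_P2160825, chr17:74283658-74283717) was dim, between 0.0483 and 0.251.

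**Figure D4:**
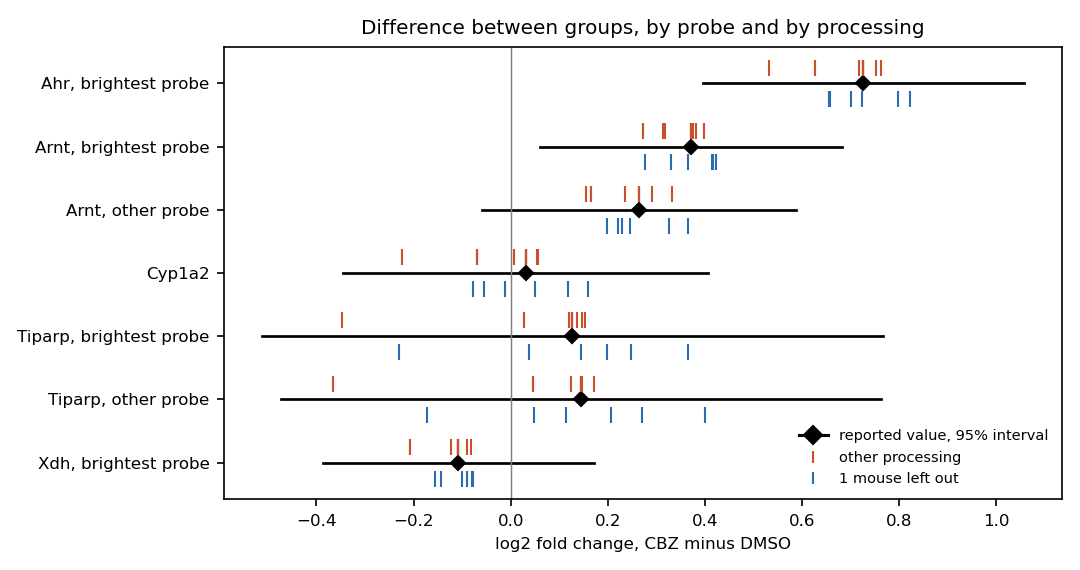
Log2 fold change, CBZ minus DMSO (x axis), of the 7 tested probes: diamonds are the reported values and black lines their 95% intervals, red ticks above are other ways of processing, and blue ticks below leave out 1 mouse. All ticks of Ahr lie between 0.53 and 0.82 and those of the brightest Arnt probe between 0.27 and 0.42, while those of Cyp1a2 and Tiparp lie on both sides of 0.

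Of the partners that hold the receptor in the cytoplasm or act with it in the nucleus, 11 of 12 listed genes were tested, and 0 passed the threshold in limma in either direction, nor an unadjusted p under 0.05. Of these 5 had a log2 fold change above 0 and 6 below, with a median of -0.01, where 49.1% of all genes were above 0. The smallest p-values belonged to the corepressor Nrip1 (0.24 ± 0.12, adjusted p of limma 0.61) and the coactivators Ncoa2 (-0.19 ± 0.14, adjusted p 0.81) and Ncoa3 (-0.19 ± 0.15, adjusted p 0.85).

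Among the bHLH-PAS relatives of Ahr and Arnt, which include the hypoxia and clock factors, 7 of 12 were tested. None passed the threshold in limma, and the median log2 fold change was 0.03. At an unadjusted p under 0.05, 0 were higher and 2 were lower, and those same 2 had groups that did not overlap. Over all genes, 3.97% were lower by that p and 6.65% were lower without overlap. Clock, the partner of BMAL1 in the circadian oscillator, read 1.80, 1.97 and 2.07 in DMSO and 1.63, 1.48 and 1.19 in CBZ (-0.45 ± 0.15, adjusted p of limma 0.39). Sim2, a developmental factor, gave -0.37 ± 0.16 (adjusted p 0.53) and Arntl2, a relative of BMAL1, gave 0.38 ± 0.18 (adjusted p 0.58).

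The other known receptor targets split evenly. Of 20 listed genes 12 were tested, 6 had a log2 fold change above 0 and 6 below, the median was 0.03, and 0 passed the threshold in limma (by an unadjusted p under 0.05, 1 of 12 higher and 0 lower, where 5% of all genes were higher). Nqo1, a quinone reductase, read 1.43, 0.833 and 0.978 in DMSO and 0.898, 0.834 and 0.957 in CBZ, with -0.23 ± 0.20 (adjusted p of limma 0.87). Aldh3a1, an aldehyde dehydrogenase, read 1.29, 1.39 and 1.36 in DMSO and 1.5, 1.44 and 1.46 in CBZ. Its groups did not overlap, but the step was small at 0.12 ± 0.12 (adjusted p of limma 0.90). Nfe2l2, the regulator NRF2, read 8.78, 9.02 and 8.05 in DMSO and 7.68, 7.34 and 5.04 in CBZ, with all CBZ mice below all DMSO mice (-0.39 ± 0.18, adjusted p of limma 0.56). Gsta2, a glutathione transferase, gave -0.32 ± 0.21 (adjusted p 0.76).

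Of the PARP relatives of Tiparp, 13 of 15 were tested, 8 with a log2 fold change above 0 and 5 below, at a median of 0.10. None passed the threshold in limma, and at an unadjusted p under 0.05 there was 1 of 13 higher and 0 lower, near the 5% higher and 3.97% lower over all genes. The 1 was Parp16, a mono-ADP-ribosyltransferase of the endoplasmic reticulum, which read 5.08, 4.64 and 4.26 in DMSO and 5.42, 7.28 and 7.6 in CBZ. All its CBZ mice lay above all DMSO mice (0.53 ± 0.16, adjusted p of limma 0.34). Parp4 (0.28 ± 0.14, adjusted p 0.61) and Parp9 (0.28 ± 0.14, adjusted p 0.64) followed.

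In purine breakdown and among the molybdenum enzymes around Xdh, 14 of 15 genes were tested, 5 above 0 and 9 below, with a median of -0.07. None passed the threshold in limma, and by an unadjusted p under 0.05 there were 0 higher and 1 of 14 lower, near the 3.97% lower over all genes. That gene was Aox3, a liver aldehyde oxidase built like xanthine dehydrogenase, which read 23.1, 29.8 and 20.0 in DMSO and 14.2, 20.3 and 17.1 in CBZ (-0.49 ± 0.19, adjusted p of limma 0.46). Its groups met at CBZ replicate 2 and DMSO replicate 3. Gphn, needed to make the molybdenum cofactor, gave -0.24 ± 0.15 (adjusted p 0.73), and Ada, adenosine deaminase, 0.22 ± 0.18 (adjusted p 0.86).

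The genes that flank the Cyp1a1 and Cyp1a2 pair were read beside the pair. Of 7 neighbours 6 were tested, 3 above 0 and 3 below, with a median of 0.02 and none past the threshold in limma (by an unadjusted p under 0.05, 0 higher and 1 of 6 lower, where 3.97% of all genes were lower). Clk3, a splicing kinase, was the one, with 7.64, 8.06 and 7.23 in DMSO and 6.35, 6.57 and 5.24 in CBZ. Its CBZ mice lay below its DMSO mice (-0.34 ± 0.14, adjusted p of limma 0.48). Lman1l (0.20 ± 0.20, adjusted p 0.91) and Ulk3 (0.05 ± 0.12, adjusted p 0.98) were the next by p.

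**Figure D5:**
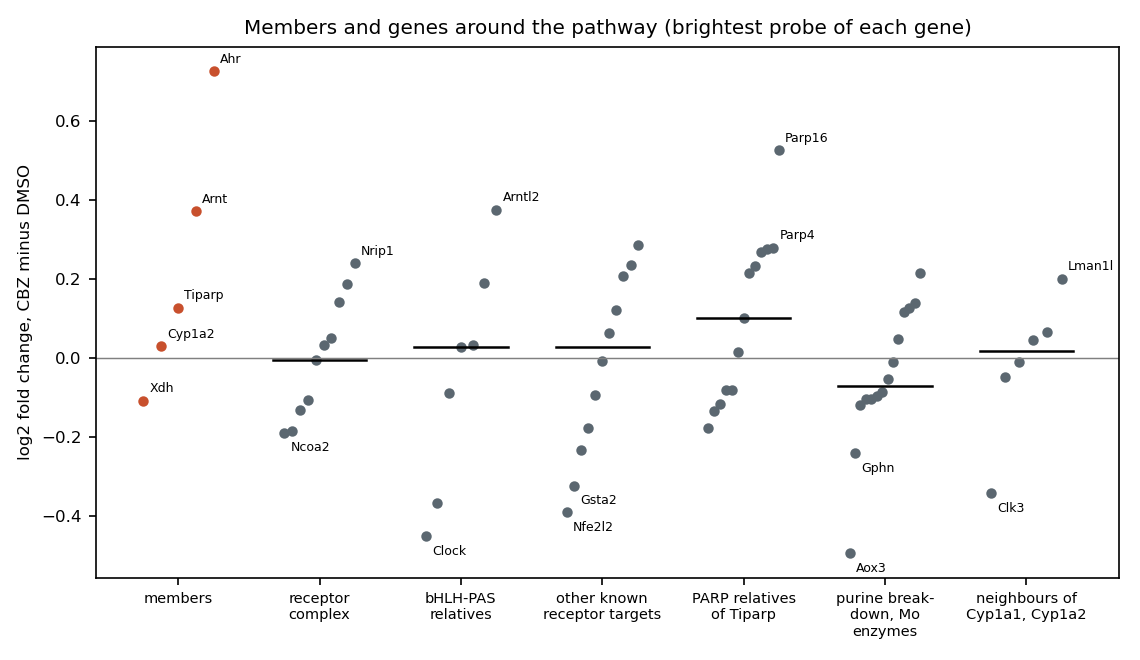
Log2 fold change, CBZ minus DMSO (y axis), of the brightest tested probe of each gene, with 1 point per gene; the first column holds the 5 tested genes Ahr, Arnt, Tiparp, Cyp1a2 and Xdh, the others are the listed groups, and black lines are the medians of those groups. The medians lie between -0.07 and 0.10. Of the genes counted, 2 that are not reported here are in the medians but not drawn.

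For comparison with another xenobiotic receptor, Cyp2b10, the usual target of the constitutive androstane receptor, read 81.2, 28.5 and 52.0 in DMSO and 509.9, 486.4 and 199.5 in CBZ. All 3 CBZ mice lay above all DMSO mice, with 2.89 ± 0.44 on the log2 scale or 7.44-fold (adjusted p of limma 0.066). Cyp3a11, the usual target of the pregnane X receptor, gave 0.10 ± 0.12 (adjusted p of limma 0.93).

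The genes whose log2 signals were most like each of the 5 over the 6 arrays were ranked among the 10984 genes eligible by Pearson's r. For Ahr these were Tnk2 (r = 0.996), Insc (0.995) and Srsf5 (0.994), and for Arnt Osbpl7 (0.988), Trdmt1 (0.984) and Nlrc5 (0.982). For Cyp1a2 they were Ech1 (0.990), Gnl1 (0.982) and Wdr25 (0.981), for Tiparp Prrc2c (0.995), Adgra3 (0.985) and Wwc1 (0.982), and for Xdh Fggy (0.999), Tyk2 (0.996) and C4bp (0.994). These are the highest values picked from so many genes over only 6 arrays, so the names describe likeness only. The genes named for Ahr and Arnt also had all CBZ mice above all DMSO mice, and their r includes that step. Between pairs of the 5 genes themselves, r over the same arrays ran from -0.62 (Arnt and Xdh) to 0.83 (Ahr and Arnt). It was 0.70 for Cyp1a2 and Tiparp, 0.34 for Ahr and Cyp1a2, and 0.31 for Ahr and Tiparp.

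Because the RNA came from whole liver, fewer cells of a type and less RNA per cell cannot be told apart. Hepatocyte markers were abundant in all mice, with a summed scaled signal of the 6 genes of 4160 to 4429 in DMSO and 4213 to 4762 in CBZ. Lymphocyte markers had a sum over 4 tested of 6 genes of 11.3 to 11.9 in DMSO and 12.1 to 16.8 in CBZ, all 4 above 0 and none past the threshold in limma nor at an unadjusted p under 0.05. Of these 4 only Cd4 had groups that did not overlap (0.30 ± 0.17, adjusted p of limma 0.68), where 6.26% of all genes were higher without overlap. The T-cell marker Cd3e, well above background on all 6 arrays, overlapped at 0.02 ± 0.13 (adjusted p of limma 0.99), and Cd3g and Cd8a were dim. Kupffer cell markers (6 of 6) summed to 120 to 274 in DMSO and 156 to 191 in CBZ, and endothelial markers (5 of 5) to 57.0 to 90.1 and 63.5 to 84.1. Of the endothelial markers 3 were above 0 and 2 below, and none passed the threshold in limma. The highest was Lyve1, a small part of that sum, with 2.09, 1.47 and 1.12 in DMSO and 3.33, 3.76 and 1.44 in CBZ. Its groups overlapped (0.80 ± 0.36, adjusted p of limma 0.56). Erythroid markers (2 of 3 tested) summed to 239.6 to 433.5 in DMSO and 223 to 348 in CBZ, both with a log2 fold change below 0. Alas2, the haem synthesis enzyme of red cell precursors, read 58.5, 73.4 and 47.5 in DMSO and 39.6, 44.8 and 43.9 in CBZ, all CBZ mice below all DMSO mice (-0.46 ± 0.17, unadjusted limma p 0.026, adjusted p 0.44). Over all genes, 3.97% were lower at an unadjusted limma p under 0.05 and 6.65% were lower without overlap. Of the cholangiocyte markers (2 of 4 tested, Epcam and Sox9 dim), Krt19 gave 0.49 ± 0.25 (adjusted p of limma 0.64). Krt7 read 0.265, 0.313 and 0.385 in DMSO and 0.293, 0.221 and 0.167 in CBZ, with overlapping groups. It was well above background on 3 arrays, those of DMSO, and passed the filter through that group alone. For that reason no fold or p is given for it. The part of these cell types in the Ahr and Arnt differences was not tested.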

How the data were processed

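Whole-liver RNA of 3 CBZ and 3 DMSO mice was read from 1-colour Agilent files, with groups and replicate numbers from the labels. Per the file headers, the authors used Agilent Feature Extraction 10.7.3.1 on the scans, and the deposited scanner files give each spot's intensity on a linear scale, background-subtracted in the processed column. The deposited table of the authors' values holds a ratio of that intensity to the array's median (largest relative difference from the scanner values 2.44e-06).

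Control spots were left out, and so were the outlier spots among the others (114 to 126 per array). The log2 processed intensity was scaled by each array's 75th percentile, and repeated spots of a probe were averaged. A probe stayed in if 1 group or both had it well above background (in most or an equal part of its usable spots) on all 3 arrays, which left 22352 of 55681 probes. A gene was represented by its brightest kept probe. Groups were compared with limma 3.58.1 in R 4.3.3 (lmFit, eBayes, two-sided, no covariate). Names came from the accession (27422 probes), symbol (3488) or synonym (507) through the RefSeq table of GRCm38.p6, and 24264 kept the file's name. The array design gives probe coordinates on mm9, and transcript bases are counted as there. No exon or UTR annotation of mm9 was used here. The genes and lists were chosen with earlier results of these data known. Genes named from a list are the 3 with the smallest p (Nqo1, Aldh3a1, Cyp2b10 and Cyp3a11 in any case), and some of them are not reported here. The fit was also run on simulated data of independent values without a slide row effect, so that run does not bear on the slide layout. Alternatives were normexp (offset 50), 3 other scalings, other filters, the deposited table, limma with an intensity trend and robust variance, slide row or replicate number as a term, averaging all probes of a gene, a looser threshold of 0.1, and leaving out each mouse.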

Additional observations from a re-analysis of the deposited data

How the results depend on the processing

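The log2 fold changes of Ahr, Arnt and Xdh kept their sign under all alternatives run. Ahr passed the threshold under normexp (0.72) and under the intensity trend with robust eBayes (0.73), so the number of the 8 genes past the threshold was 1 there and 0 otherwise. Cyp1a2 changed sign on median scaling and in the authors' table (-0.069 in both), with the slide row (-0.22) and when a mouse was left out (-0.077 to 0.16). Tiparp changed sign with the slide row (-0.35 for the brightest probe and -0.37 for the other) and without CBZ replicate 3. Leaving out 1 mouse gave -0.23 to 0.36 for the brightest probe and -0.17 to 0.40 for the other. The causes were not tested. Median scaling and the authors' table divide by the same number, moved the median gene by -0.10, and had a variance common to all probes, so their p-values do not measure each gene's spread.

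Over all genes, 8 were higher and 1 lower in CBZ with limma. The pairs of counts were 59 and 44 with normexp, 44 and 45 on median scaling and in the authors' table, 63 and 71 with the intensity trend, 23 and 7 with the filter on all 6 arrays, 28 and 14 at an adjusted p under 0.1, and 2 and 2 with the slide row. With quantile normalisation 3 were higher. Scaling on the spots detected on all arrays gave 3 higher and 0 lower (645 lower at an unadjusted p under 0.05), and no filter gave 0 and 0 (1058 and 542). Leaving out 1 mouse gave 0 to 16 higher and 0 to 5 lower (unadjusted 536 to 1034 and 382 to 998). List genes above 0 numbered 3 rather than 5 in the receptor complex on median scaling, in the authors' table and with the slide row. The bHLH-PAS relatives had 2 rather than 4 on median scaling and in the authors' table, and 8 with no filter. The other targets had 10 rather than 6 with no filter, the Xdh group 2 rather than 5 with the slide row and 3 to 7 without 1 mouse, and the neighbours 1 rather than 3 on median scaling and in the authors' table.

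The labels do not say that the replicate numbers pair the mice. Same-numbered mice deviated together with r of -0.24, 0.02 and 0.18, and differently numbered mice with r of -0.35 to 0.38. Deviations from means of 3 mice are tied to each other, so these values cannot decide whether mice were paired. With the number as a replicate block 6 genes were higher and 1 lower, and 0 of the 8 genes passed (Ahr 0.73, adjusted p of limma 0.30). Signal over background limits Ahrr, Cyp1a1 and Cyp1b1, for which no fold could be given in either group.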
